A study of Mus musculus with 4 samples.

Results

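The miR-181 family was followed in small RNA libraries from mouse retina. Its members were all listed mature microRNAs (miRNAs) whose name starts with miR-181a, miR-181b, miR-181c or miR-181d, both arms of the precursor hairpin included. This gave 10 arms of 1326 listed miRNAs, 4 of them 5p arms and 6 of them 3p arms. The retinas were taken at E18.5, shortly before birth, from Ptf1a-/- mice, which lack functional Ptf1a, and from Ptf1a+/- mice, which keep a single functional copy and served as the comparison, with 2 libraries each. Retinas with both copies of Ptf1a were not analysed here, so both groups carry at least 1 mutant allele, and the labels used here do not name the allele or say whether a library came from 1 animal or a pool. Nothing states that replicates are different animals, and the p-values below then cover only how far these libraries vary, possibly for technical reasons. RNA of 18 to 30 nt was sequenced, so Ptf1a mRNA could not be used to check the genotype labels.

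A miRNA is cut from a hairpin whose 5p or 3p strand is loaded into an Argonaute protein, and bases 2 to 8 of that strand, the seed, pair with target mRNAs. miR-181 miRNAs are abundant in brain, thymus and retina; in the retina, miR-181a and miR-181b have been reported in amacrine and ganglion cells of the inner layers, and in medaka fish they are needed for axon growth and connections of these neurons. Ptf1a is a transcription factor that retinal precursors need to become amacrine and horizontal cells, and in mouse retina without it many of these precursors are known to become ganglion cells instead. In whole retina, fewer cells of a type and less RNA per cell cannot be told apart.

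The 5p arms are shown first because they make up the bulk of the family and share a seed, here in capitals. The sequences are RefSeq's on GRCm38.p6, in which all 10 arms were matched, written 5′ to 3′; the prefix mmu-, for mouse, is left out elsewhere.
mmu-miR-181a-5p: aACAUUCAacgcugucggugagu
mmu-miR-181b-5p: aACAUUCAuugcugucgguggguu
mmu-miR-181c-5p: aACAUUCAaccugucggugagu
mmu-miR-181d-5p: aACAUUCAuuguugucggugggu
No other mature mouse miRNA in the RefSeq table of 1679 had this seed. Counted from 1 at the 5′ end, miR-181b-5p differed from miR-181a-5p by A9U, C10U and A21G over the 23 shared positions, and miR-181d-5p differed from miR-181b-5p by C12U alone. The most frequent sequence deposited for miR-181b-5p had 23 bases in all 4 libraries, without the last base of the RefSeq arm.

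The 3p arms are shown because each of them belongs to a single precursor and so tells the genomic clusters apart, which miR-181a-5p and miR-181b-5p, each made from 2 precursors, cannot do.
mmu-miR-181a-1-3p: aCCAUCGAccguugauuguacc
mmu-miR-181c-3p: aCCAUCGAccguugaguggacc
mmu-miR-181a-2-3p: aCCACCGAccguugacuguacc
mmu-miR-181d-3p: cCCACCGGgggaugaauguca
mmu-miR-181b-1-3p: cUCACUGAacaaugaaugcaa
mmu-miR-181b-2-3p: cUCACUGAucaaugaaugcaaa
Capitals again mark bases 2 to 8. miR-181a-1-3p and miR-181c-3p shared a seed and differed by U16G and U19G, and miR-181b-1-3p and miR-181b-2-3p shared another and differed by A9U over 21 positions. miR-181a-2-3p differed from miR-181a-1-3p by U5C, inside the seed, and by U16C. The most frequent sequence equalled the RefSeq arm in every library for 6 of the 10 arms. It was 1 base shorter at the 3′ end for miR-181b-1-3p in Ptf1a-/- replicate 2, and 1 base longer for miR-181b-2-3p in Ptf1a-/- replicate 2 and Ptf1a+/- replicate 1. For miR-181d-3p, the scarcest arm, it equalled RefSeq only in Ptf1a+/- replicate 2. In the other 3 of 4 libraries it was neither the RefSeq arm shortened at 1 end nor that arm lengthened at its 3′ end. It had 19 bases in Ptf1a-/- replicate 1 and 21 in the others.

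The 6 precursors lie in 3 pairs. Mir181a-1 (chromosome 1, 137966455 to 137966541, plus strand, GRCm38) and Mir181b-1 (137966639 to 137966718) are 97 bases apart in an intron of the noncoding gene Gm4258. On the same strand, Mir181b-1 also lies within an exon of the long noncoding RNA A430106G13Rik, and Mir181a-1 lies partly within one. Mir181a-2 (chromosome 2, 38852735 to 38852810, plus strand) and Mir181b-2 (38853830 to 38853918) are 1019 bases apart, antisense to an intron of the nuclear receptor gene Nr6a1. Mir181c (chromosome 8, 84178873 to 84178961, minus strand) and Mir181d (84178716 to 84178787) are 85 bases apart in an intron of a transcript of Nanos3. The hairpins of the Mir181b pair are printed because their 3p arms had log2 fold changes of opposite sign; capitals mark both mature arms.
Mir181b-1, chr1:137966639-137966718, plus strand: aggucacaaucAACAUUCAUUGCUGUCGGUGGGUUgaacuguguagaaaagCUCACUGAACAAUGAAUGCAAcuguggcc
Mir181b-2, chr2:38853830-38853918, plus strand: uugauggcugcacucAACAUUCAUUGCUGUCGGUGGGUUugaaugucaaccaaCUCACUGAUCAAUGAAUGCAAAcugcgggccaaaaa

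The libraries held 3647145 to 4385834 listed counts each, and no arm fell under 3 counts in any library. The Ptf1a-/- libraries differed from each other far more (biological coefficient of variation 22.6%) than the Ptf1a+/- libraries did (1.39%). Scaling between libraries used TMM, which corrects for a few abundant miRNAs taking a larger share of a library; its factor was 0.829 for Ptf1a-/- replicate 2 and 1.06 to 1.07 for the others. Differences were tested over the 584 miRNAs that reached 10 counts in 2 libraries or more, with edgeR's quasi-likelihood test, and a miRNA was called at a Benjamini-Hochberg adjusted p under 0.05. All 10 arms passed this filter. Over the 584 miRNAs, 21 were lower (3.60%) and 36 higher (6.16%) in Ptf1a-/-, 57 in all (9.76%). The retinal miRNAs miR-182-5p, miR-183-5p, miR-96-5p, miR-124-3p and miR-9-5p were present in all 4 libraries, at 832 CPM (counts scaled to a common library total, here with TMM) or more in each.

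The family as a whole took a smaller share of the counts in Ptf1a-/- retinas. It made up 3.34 and 2.82% of listed counts in Ptf1a-/- and 4.50 and 4.53% in Ptf1a+/-, and the genotypes did not overlap. On the TMM scale the 10 arms summed to 31515 and 34024 CPM in Ptf1a-/- and 42354 and 42252 CPM in Ptf1a+/-. Of the 10 arms 1, miR-181b-1-3p, fell at the threshold, none rose, and 9 did not pass. The median log2 fold change was -0.20, against -0.0031 over all 584 miRNAs. Both Ptf1a-/- libraries lay below both Ptf1a+/- libraries for 8 arms, as for 31.5% of all miRNAs tested, and above both for 1 arm, as for 26.7%.

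**Figure D1:**
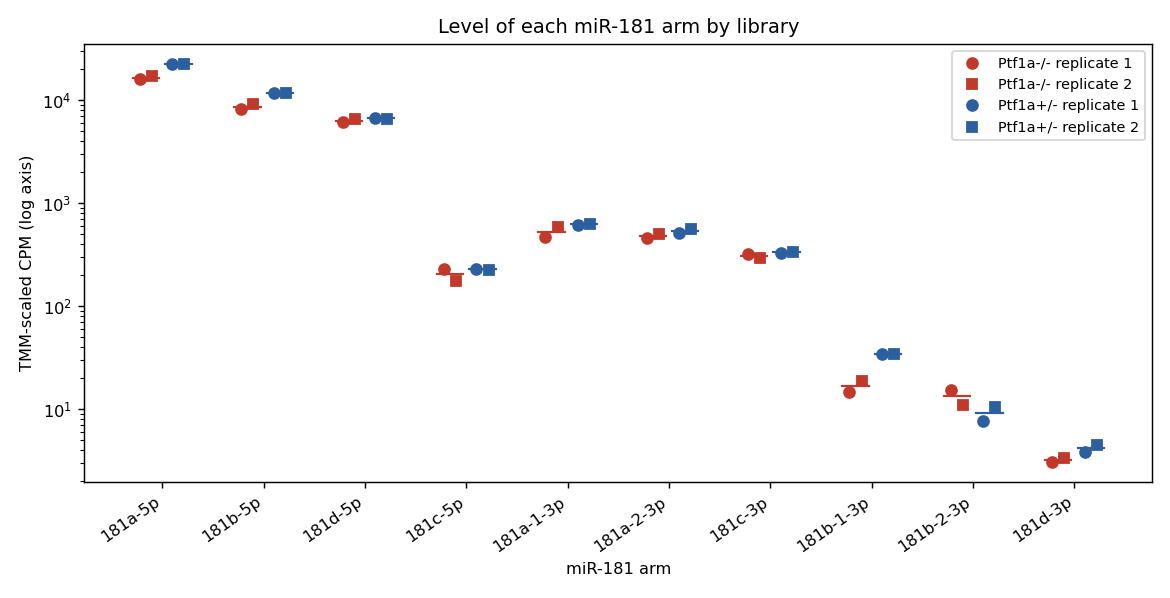
Level of each miR-181 arm (TMM-scaled CPM, log axis) in the Ptf1a-/- libraries (red, left) and the Ptf1a+/- libraries (blue, right), with circles for replicate 1, squares for replicate 2 and a line at the mean of 2 libraries. miR-181a-5p averaged 16348 and 22304 CPM and miR-181b-1-3p 16.7 and 34.3 CPM in these groups, while miR-181d-5p, at 6290 and 6616 CPM, lay closer together.

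miR-181a-5p, the most abundant member and rank 7 of 584 by mean level, had 15819 and 16877 CPM in the Ptf1a-/- libraries, against 22276 and 22333 CPM in the Ptf1a+/- libraries. Its log2 fold change was -0.45 ± 0.12 (SE), which did not pass (adjusted p = 0.0843, edgeR). miR-181b-5p, which comes from the same pairs of hairpins, had 8120 and 9052 CPM in Ptf1a-/- and 11679 and 11557 CPM in Ptf1a+/-, with a log2 fold change of -0.44 ± 0.12 (adjusted p = 0.0843). Both arms were lower in both Ptf1a-/- libraries than in either Ptf1a+/- library, by about the same factor, and neither passed. miR-181d-5p, which carries the same seed but comes from chromosome 8, had 6074 and 6506 CPM in Ptf1a-/- and 6672 and 6560 CPM in Ptf1a+/- (log2 fold change -0.07 ± 0.11, adjusted p = 0.752). miR-181c-5p, its cluster partner, had 230 and 176 CPM in Ptf1a-/- and 227 and 226 CPM in Ptf1a+/- (-0.16 ± 0.16, adjusted p = 0.590), so its genotypes overlapped; without Ptf1a-/- replicate 2 its log2 fold change was 0.028. The order of the 5p arms was a, b, d, c in every library. The 3 abundant ones did not overlap each other within a genotype.

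Ratios of arms within a library do not depend on scaling between libraries. The ratio of miR-181b-5p to miR-181a-5p was 0.513 and 0.536 in Ptf1a-/- and 0.524 and 0.517 in Ptf1a+/-, so the genotypes overlapped. The ratio of miR-181d-5p to miR-181a-5p was 0.384 and 0.386 in Ptf1a-/- against 0.300 and 0.294 in Ptf1a+/-. This ratio was chosen after its values were seen. Its difference of 0.38 in log2 ratio (means -1.38 ± 0.0041 and -1.75 ± 0.020, SD, n = 2 each) was larger than the SD within either genotype. miR-181d-5p accordingly made up 20.1 and 20.0% of the 5p counts in Ptf1a-/- and 16.3 and 16.1% in Ptf1a+/-, and miR-181a-5p 52.3 and 51.8% against 54.5 and 54.9%. The ratio of miR-181c-5p to miR-181a-5p was 0.0146 and 0.0104 in Ptf1a-/- and 0.0102 and 0.0101 in Ptf1a+/-, a gap that was wide in Ptf1a-/- replicate 1 only. With 2 libraries per genotype, 0.333 is the smallest p of a two-sided exact permutation test. The 7 of 12 ratios and shares that did not overlap between genotypes all had this p (0.571 after Benjamini-Hochberg adjustment over the 12). Of the 12, 5 were chosen after their values were seen. Among these 5, only the ratio of miR-181c-3p to miR-181c-5p overlapped. The others were miR-181d-5p and miR-181c-5p to miR-181a-5p, miR-181b-1-3p to miR-181b-2-3p, and miR-181b-2-3p to miR-181a-2-3p. All of these others count among the 7, so that number rests in part on the choice and is a description only.

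**Figure D2:**
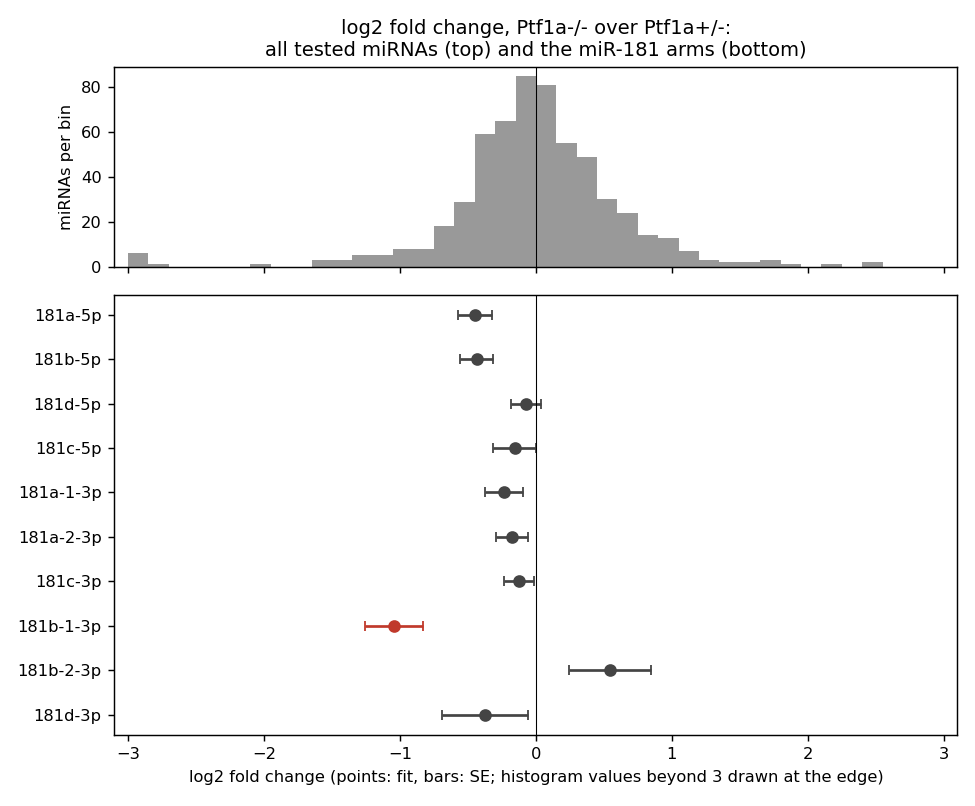
log2 fold change of Ptf1a-/- over Ptf1a+/-, as a histogram over the 584 miRNAs tested (top) and for each miR-181 arm with its SE (bottom; the arm that passed the threshold in red). Of the arms, 9 lie below 0, miR-181b-1-3p at -1.04 lies farthest below, and miR-181b-2-3p at 0.55 lies above. Of all 584 miRNAs, 296 lie below 0.

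Among the precursor-specific 3p arms, those of the Mir181b hairpins had log2 fold changes of opposite sign, and 1 of them passed the threshold. miR-181b-1-3p, the passenger arm of Mir181b-1 on chromosome 1, had 57 and 61 counts in Ptf1a-/- and 134.5 and 160 counts in Ptf1a+/-. On the TMM scale these were 14.7 and 18.8 CPM in Ptf1a-/- and 34.6 and 34.0 CPM in Ptf1a+/-. The arm fell by 1.04 ± 0.21 (SE) on the log2 scale (adjusted p = 0.0367, edgeR), to 0.485 of its Ptf1a+/- level, and both Ptf1a-/- libraries were below both Ptf1a+/- libraries. The call rests on the Ptf1a+/- libraries counting as 2 replicates: with either left out, or the pair summed into 1, the adjusted p was 0.547 (without replicate 1), 0.487 (without replicate 2) and 0.400 (summed), with log2 fold changes of -1.05, -1.07 and -1.07. It was also lost with library size as the only scaling (adjusted p = 0.0557), with no filter on low counts (0.0636) and with replicate number as a block (0.1000).

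miR-181b-2-3p, the matching arm from chromosome 2, had 60 and 36 counts in Ptf1a-/- and 30.5 and 49 in Ptf1a+/-. Its TMM-scaled levels were 15.5 and 11.1 CPM in Ptf1a-/-, against 7.75 and 10.4 CPM in Ptf1a+/-, a log2 fold change of 0.55 ± 0.30 that did not pass (adjusted p = 0.321, edgeR). The higher level came mainly from Ptf1a-/- replicate 1, and replicate 2 was close to Ptf1a+/- replicate 2. Within a library the ratio of miR-181b-1-3p to miR-181b-2-3p was 0.950 and 1.69 in Ptf1a-/- and 4.41 and 3.27 in Ptf1a+/-. The arm of Mir181b-1 thus outnumbered that of Mir181b-2 in both Ptf1a+/- libraries, and in the Ptf1a-/- libraries their levels overlapped. The mean log2 ratios were 0.34 ± 0.59 and 1.92 ± 0.31 (SD, n = 2 each; exact permutation p = 0.333, the smallest possible). The ratio of these arms was also chosen after its values were seen. The arms added together had 30.2 and 29.9 CPM in Ptf1a-/- and 42.6 and 44.4 CPM in Ptf1a+/-, a log2 ratio of -0.54.

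The 3p arms of the neighbouring hairpins differed less between genotypes, and neither passed. miR-181a-1-3p, from the hairpin next to Mir181b-1, had 465 and 590 CPM in Ptf1a-/- and 612 and 628 CPM in Ptf1a+/- (log2 fold change -0.23 ± 0.14, adjusted p = 0.381). This value rested on which Ptf1a-/- library was used, at -0.083 without replicate 1 and -0.41 without replicate 2. The ratio of miR-181b-1-3p to miR-181a-1-3p was 0.0316 and 0.0318 in Ptf1a-/- against 0.0568 and 0.0542 in Ptf1a+/-, a difference of -0.81 in log2 ratio with SDs of 0.0061 and 0.047 (n = 2 each; exact permutation p = 0.333). miR-181a-2-3p had 454 and 501 CPM in Ptf1a-/- and 513 and 563 CPM in Ptf1a+/- (-0.17 ± 0.12, adjusted p = 0.414). The ratio of miR-181b-2-3p to miR-181a-2-3p was 0.0341 and 0.0221 in Ptf1a-/- and 0.0154 and 0.0185 in Ptf1a+/-, a difference of 0.71 in log2 ratio that was 0.39 without Ptf1a-/- replicate 1. Both of these 3p ratios separated the genotypes, whereas that of miR-181b-5p to miR-181a-5p overlapped. The ratio of miR-181b-2-3p to miR-181a-2-3p was chosen after its values were seen, so its separation is a description only. miR-181a-1-3p lay above miR-181a-2-3p in every library, but their ranges overlapped in Ptf1a-/-.

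**Figure D3:**
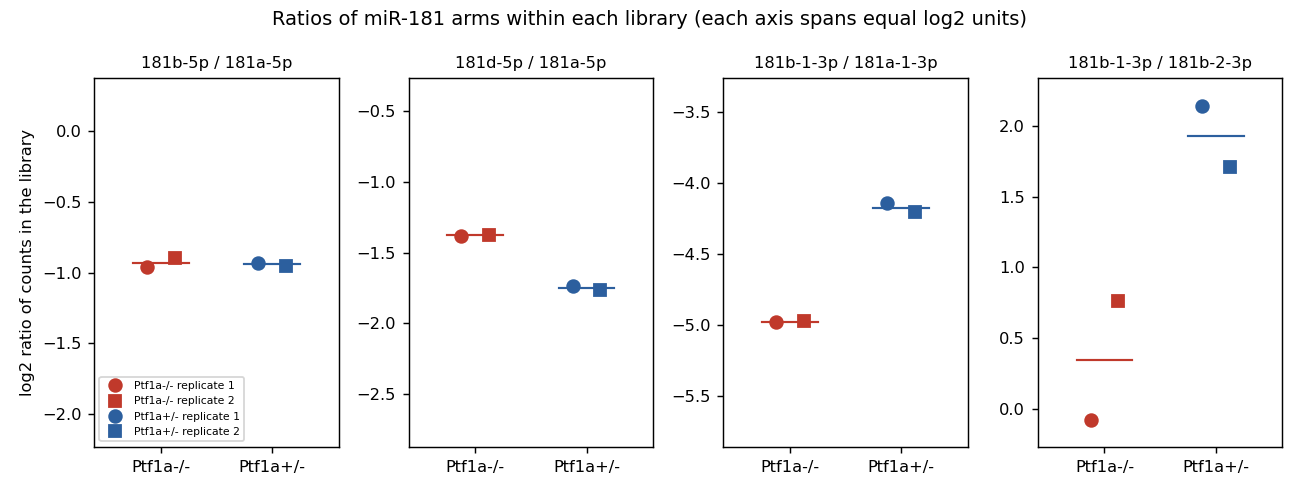
log2 ratio of the counts of 2 arms within each library, Ptf1a-/- in red on the left and Ptf1a+/- in blue on the right of each panel, with a line at the mean of 2 libraries and the same span on every vertical axis. The ratio of miR-181b-5p to miR-181a-5p overlaps between genotypes, that of miR-181d-5p to miR-181a-5p is higher in Ptf1a-/- (-1.38 and -1.75), and both ratios of miR-181b-1-3p are lower. The ratios of miR-181d-5p to miR-181a-5p and of miR-181b-1-3p to miR-181b-2-3p were chosen after their values were seen.

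On chromosome 8, miR-181c-3p had 319 and 289 CPM in Ptf1a-/- and 328 and 336 CPM in Ptf1a+/- (log2 fold change -0.13 ± 0.11, adjusted p = 0.543). The 5p counts of the Mir181a and Mir181b hairpins cannot be assigned to single precursors, so the arm balance of a precursor was read only on chromosome 8. There the 3p arm of Mir181c outnumbered its 5p arm, at a ratio of 1.38 and 1.65 in Ptf1a-/- and 1.44 and 1.48 in Ptf1a+/-. Its neighbour Mir181d had the opposite balance. miR-181d-3p had 12 and 11 counts in Ptf1a-/- and 15 and 21 in Ptf1a+/-, beside 23539 and 21136 counts of miR-181d-5p in Ptf1a-/- and 25838 and 30846 in Ptf1a+/-. Its log2 fold change of -0.37 ± 0.32 did not pass (adjusted p = 0.519), and at this depth the ratio of the summed counts was 0.769 with a 95% counting interval of 0.435 to 1.33 (Clopper-Pearson). For miR-181b-2-3p the same interval was 1.07 to 2.00, and for miR-181b-1-3p 0.387 to 0.600; these cover counting error only, not the spread between libraries.

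Summed over 3p arms, the Mir181a-1 and Mir181b-1 pair gave 37.7 and 43.1% of 3p counts in Ptf1a-/- and 43.1 and 42.0% in Ptf1a+/-. The Mir181a-2 and Mir181b-2 pair gave 36.9 and 36.2% in Ptf1a-/- and 34.7 and 36.4% in Ptf1a+/-, and the Mir181c and Mir181d pair 25.4 and 20.7% in Ptf1a-/- and 22.1 and 21.6% in Ptf1a+/-. All 3 shares overlapped between genotypes, since the a and c arms outweigh the low b and d arms. The 3p arms together were 0.0420 and 0.0433 of the 5p arms in Ptf1a-/-, against 0.0367 and 0.0387 in Ptf1a+/-, and this ratio was higher in both Ptf1a-/- libraries.

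Not all deposited counts were whole. Of the 40 values of the family, 12 were not whole, all 12 ending in 0.5, and they fell in 6 arms. They always came in pairs within a library: miR-181a-5p with miR-181b-5p, miR-181a-1-3p with miR-181c-3p, and miR-181b-1-3p with miR-181b-2-3p. The sum of each of these pairs was whole in every library. How such values arose is not stated. If reads were divided between arms, an even number of them would leave no such trace. The separate values within each of these pairs are therefore uncertain to an unknown extent. This holds for miR-181b-1-3p and miR-181b-2-3p, which differ by a single base over their shared length, and also for miR-181a-1-3p and miR-181c-3p. It carries over to the ratios and cluster shares that use these arms.

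Other retinal miRNA groups were read from the same fit, with lists that were chosen knowing earlier results. Of 6 arms of the photoreceptor cluster of miR-183, miR-96 and miR-182 none passed (median log2 fold change 0.32), miR-96-3p standing at 0.54 (adjusted p = 0.134) and miR-96-5p at -0.34 (0.210). Of 6 arms of miR-216a, miR-216b and miR-217, the miRNA group of the series title, 3 fell (median -1.01), among them miR-216a-3p (-1.18 ± 0.16, adjusted p = 0.0124) and miR-216b-5p (-1.51 ± 0.26, adjusted p = 0.0244). Of 4 arms of the neuronal miRNAs miR-124 and miR-9 none passed (median 0.19), miR-124-5p standing at 0.30 (adjusted p = 0.288) and miR-9-5p at 0.38 (0.300). Of 14 listed arms of miR-29, miR-125b, miR-30a and miR-30d, also reported in the inner retina, 11 were tested and none passed (median 0.17), miR-30a-3p standing at -0.43 (adjusted p = 0.134) and miR-30a-5p at 0.32 (0.143). Among these retinal groups the miR-181 median of -0.20 lay above that of the miR-216 and miR-217 arms and below the other 3. Of the marker lists for other tissue described below, the medians were -0.35 for pigment epithelium, -0.35 for vessels and mural cells, -0.44 for lens and surface epithelium and 0.44 for striated muscle. These differences between lists were not tested.

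The miRNAs nearest to miR-181a-5p in their centred log2 levels over the 4 libraries, among 193 others with a mean of at least 100 CPM, were miR-330-5p, miR-296-3p, miR-125a-5p, miR-204-3p and miR-149-5p, at Euclidean distances of 0.116 to 0.126. miR-181b-5p was nearer than any of them, at 0.0480. All neighbours named here were chosen by their pattern over these same libraries, so their lower levels in Ptf1a-/- follow from that choice. In the fit, miR-296-3p, miR-125a-5p and miR-204-3p were called lower (log2 fold changes -0.55, -0.52 and -0.54, adjusted p = 0.0387, 0.0430 and 0.0436, edgeR), while miR-330-5p (-0.36, adjusted p = 0.134) and miR-149-5p (-0.44, 0.0577) did not pass. Of 407 miRNAs with a mean of at least 10 CPM, those nearest to miR-181b-1-3p were miR-342-5p, miR-199a-5p, miR-3085-3p, miR-143-3p and miR-1247-3p, at 0.176 to 0.272. miR-181b-1-3p lay farther from miR-181a-5p (0.625) than from any of these.

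**Figure D4:**
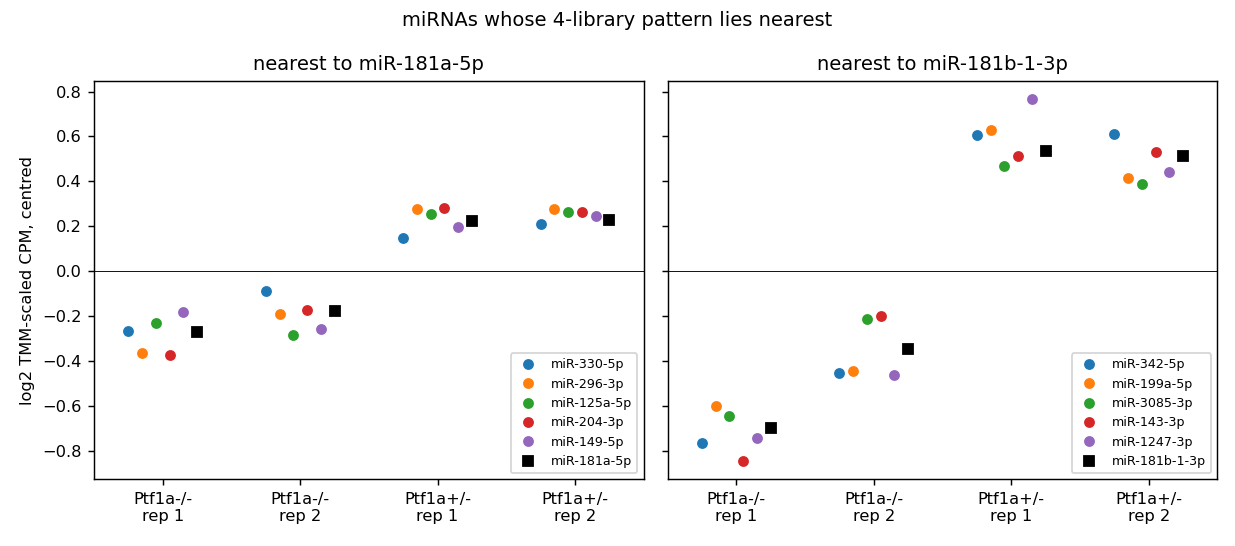
Centred log2 TMM-scaled CPM in each library of miR-181a-5p (left, black squares) and miR-181b-1-3p (right, black squares) with the 5 miRNAs nearest to each (coloured circles, side by side within a library). All lie below 0 in both Ptf1a-/- libraries and above 0 in both Ptf1a+/- libraries, which for the neighbours follows from how they were chosen.

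Among these neighbours are members of the marker lists for other tissue, miR-204-3p of the pigment epithelium list and miR-143-3p of the vessel and mural cell list. Whether these miRNAs come only from such tissue was not tested. The 3 pigment epithelium markers (miR-204-5p, miR-204-3p and miR-211-5p) summed to 3203 and 3565 CPM in Ptf1a-/- and 3689 and 3728 CPM in Ptf1a+/-, and 1 of 3 was called lower. The one called was miR-204-3p (log2 fold change -0.54). miR-204-5p, the most abundant of them, stood at -0.09 and miR-211-5p at -0.35, and neither passed. The 3 vessel and mural cell markers tested (of 4 listed; miR-145a-5p had 0 counts in 3 of 4 libraries) summed to 352 and 587 CPM in Ptf1a-/- and 593 and 613 CPM in Ptf1a+/-, and none was called. Of these, miR-143-3p had 13.2 and 20.6 CPM in Ptf1a-/- and 33.8 and 34.2 CPM in Ptf1a+/- (log2 fold change -1.03). miR-126a-3p stood at -0.35, while miR-126a-5p went the other way, at 0.31. The lens and surface epithelium markers tested summed to 227 and 300.4 CPM in Ptf1a-/- and 305 and 292 CPM in Ptf1a+/-. They did not move together. miR-200b-3p was called lower and miR-184-3p stood at -0.44, while miR-203-3p went the other way, at 0.30. Neither miR-184-3p nor miR-203-3p passed, and miR-205-5p was not among the miRNAs analysed here. The striated muscle markers summed to 65.0 and 70.2 CPM in Ptf1a-/- and 48.5 and 51.3 CPM in Ptf1a+/-, and none was called. Of 4 blood cell markers, miR-451a, miR-144-3p and miR-223-3p had at most 2 counts in any library. The remaining one, miR-486a-5p, had 63.5 and 95.7 CPM in Ptf1a-/- and 72.8 and 69.8 CPM in Ptf1a+/- (log2 fold change 0.15 ± 0.22, adjusted p = 0.737, edgeR). The part of other tissue in the miR-181 values was not tested.

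Which arms were called depended on the scaling between libraries. With library size as the only scaling, all 584 miRNAs shifted to a median log2 fold change of -0.18, with 12 called lower and 4 higher. Of the arms, 2 were called lower, miR-181a-5p (-0.63) and miR-181b-5p (-0.62), both at an adjusted p of 0.0351 (edgeR). With the totals behind the deposited CPM the median of all 584 miRNAs was -0.34, with 27 called lower and 2 higher. Here 3 arms were called lower, miR-181a-5p (-0.78, adjusted p = 0.0153, edgeR), miR-181b-5p (-0.78, 0.0199) and miR-181b-1-3p (-1.39, 0.0381). These totals exceed the listed counts by 22.7 and 27.9% of the total in Ptf1a-/- and by 17.05 and 16.3% in Ptf1a+/-, and the sources used here do not say what they count. Relative to the median of all miRNAs, the family's median stood at -0.20 with TMM, -0.22 with library size and -0.22 with the deposited totals. Under TMM, RLE and these other scalings 9 of 10 arms were below 0, with miR-181b-2-3p above. Of all 584 miRNAs, 296 were below 0 with TMM. With library size or the deposited totals the median of all miRNAs was itself below 0, so the sign of an arm says less there.

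**Figure D5:**
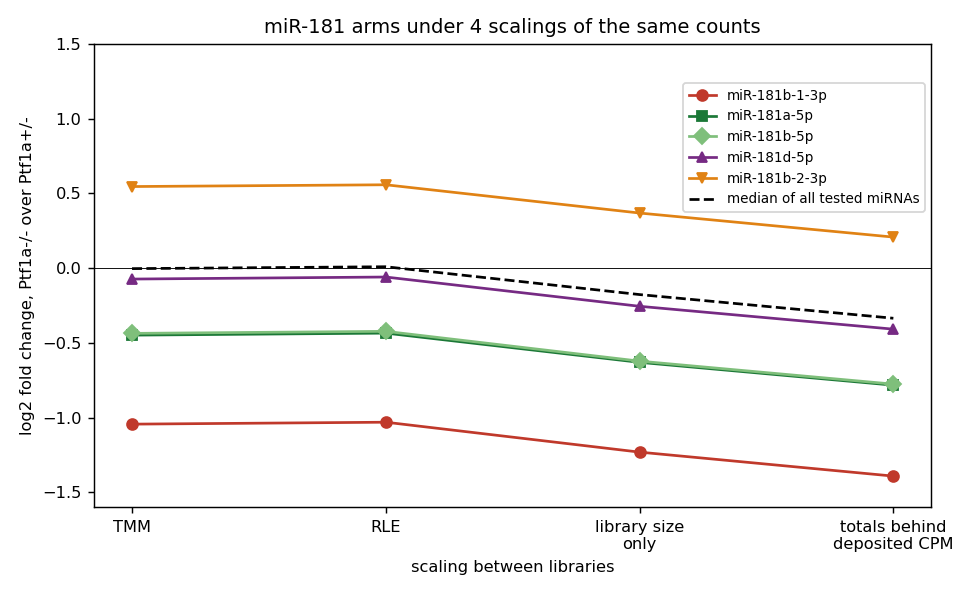
log2 fold change of Ptf1a-/- over Ptf1a+/- for 5 miR-181 arms (coloured lines) and the median of all tested miRNAs (dashed) under 4 scalings between libraries. The lines shift down together with the median, which is -0.0031 with TMM, -0.18 with library size only and -0.34 with the totals behind the deposited CPM, and keep their order.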

How the data were processed

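Small RNA of mouse retina was sequenced in 4 libraries, 2 of Ptf1a-/- and 2 of Ptf1a+/-, grouped by their titles. Per the labels' protocols, RNA of 18 to 30 nt and then cDNA of 60 to 80 nt were cut from gels and a New England Biolabs small RNA kit was used; ligation and size selection favour some sequences, which touches levels between arms more than 1 arm between libraries. The submitters' processing notes name bcl2fastq 2.20.0.422; the sources used here name no aligner, counter or build. The deposited raw values are estimated counts (5.73 to 7.84% per library not whole), and were rounded for the tests although whole counts had been assumed. The deposited CPM are the authors' counts scaled to a total larger than the listed counts. The deposited most frequent sequences are text, written against miRBase22 per the file headers.

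edgeR 4.0.16 (R 4.3.3) tested genotype alone over 584 miRNAs that reached 10 counts in 2 libraries or more, with TMM scaling and Benjamini-Hochberg adjustment; levels are TMM-scaled CPM. Ratios and shares used the unrounded counts with exact permutation tests. The fit was tested on simulated counts with the same spread in both genotypes. The libraries differ from this (biological coefficient of variation 22.6% in Ptf1a-/- and 1.39% in Ptf1a+/-), so calls under unequal spread were not tested. Alternatives were RLE, library size or deposited totals as scaling, DESeq2 1.42.0, other filters, unrounded values, a robust fit, a replicate block, leaving out each library, summing the Ptf1a+/- pair, and limma 3.58.1 on log2(deposited CPM + 1). All arms are named; the other named miRNAs are the 5 nearest in pattern to miR-181a-5p and to miR-181b-1-3p the 2 smallest p-values of each retinal list, and members of the cell type marker lists. Members, lists and rules were chosen with earlier results of these data known. Precursors were placed with GENCODE M21 (GRCm38) and sequences taken from RefSeq (GRCm38.p6). No column was left without a sample. No molecular identifiers are described, so intervals cover counting error only.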

Additional observations from a re-analysis of the deposited data

How the results depend on the processing

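Numbers of calls moved with the treatment of the Ptf1a+/- pair and with scaling. Against 36 higher and 21 lower miRNAs, of which 0 and 1 were miR-181 arms, library size as the only scaling gave 4 higher and 12 lower with 2 arms lower, the totals behind the deposited CPM 2 higher and 27 lower with 3 arms lower, limma on the deposited CPM 1 higher and 27 lower with 3 arms lower, no filter on low counts 12 and 9 with 0 arms lower, and the summed Ptf1a+/- pair 0 and 1 with 0 arms lower. Leaving out 1 library gave 0 to 137 higher and 0 to 137 lower miRNAs, and 0 to 1 arms higher and 0 to 6 lower. The high counts came without a Ptf1a-/- library, when the spread rests on the close Ptf1a+/- pair and the lone library is assumed to vary like it. RLE, DESeq2, a minimum of 50 counts, unrounded values and the robust fit each called 1 arm lower, miR-181b-1-3p. With the replicate block 5 miRNAs were higher and 7 lower, with 0 arms lower (miR-181b-1-3p adjusted p = 0.1000); the deviations of same-numbered libraries had a correlation of 0.050 over miRNAs, and the labels pair no libraries. Leaving out 1 library moved the difference in log2 ratio of miR-181b-5p to miR-181a-5p from its 0.01 to between -0.021 and 0.042, the share of the Mir181a-1 pair from -2.17 to between -4.84 and 0.507 percentage points, that of the Mir181a-2 pair from 0.998 to between 0.160 and 1.84, and that of the Mir181c pair from 1.17 to between -1.15 and 3.49. The difference in log2 ratio of miR-181b-2-3p to miR-181a-2-3p ranged between 0.39 and 1.02 and that of miR-181b-1-3p to miR-181b-2-3p between -1.998 and -1.16. The log2 fold changes ranged between -0.41 and -0.083 for miR-181a-1-3p, -0.26 and -0.12 for miR-181a-2-3p, -0.21 and -0.055 for miR-181c-3p, -0.12 and -0.033 for miR-181d-5p, -0.49 and -0.28 for miR-181d-3p, and 0.26 and 0.77 for miR-181b-2-3p. It put the log2 fold change of miR-181c-5p between -0.38 and 0.028 and the difference in log2 ratio of miR-181c-3p to miR-181c-5p between -0.080 and 0.17, both reversed without Ptf1a-/- replicate 2. The cause of these changes was not tested. miR-181d-3p, with 11 to 21 counts per library, and miR-181b-2-3p are limited by depth.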
